A study of Saccharomyces cerevisiae with 6 samples.

Results

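Chaperones and co-chaperones of budding yeast were followed in 3′ end libraries from a strain lacking JHD2 and from wild type. The genes were taken from a list of 34 known members of the protein folding machinery. It held the heat shock families Hsp90, Hsp70, Hsp60, Hsp104, Hsp40 and the small heat shock genes, their co-chaperones, the ribosome-bound chaperones and the heat shock transcription factor gene HSF1. Of these, 24 had rows among the 4014 genes of the table. The other 10 were not analysed here: HSC82, SSA2, HSP10, FES1, SSE1, HSP42, HSP78, HSP104, HSP26 and SSB1. The table used here lists genes with at least 2 clusters of polyadenylation (pA) sites. Values for the disaggregase and small heat shock classes are therefore not given.

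The 6 libraries are of mid-log Saccharomyces cerevisiae cells: 3 carried a deletion of JHD2 and 3 were wild type for it. Jhd2 is a KDM5-type enzyme that removes methyl groups from histone H3, and the question posed was whether its class helps to set how long 3′ untranslated regions are. Nothing used here names the strain background, medium or temperature, or says that replicates grew as separate cultures. The p-values thus reflect only the scatter among libraries, and that scatter may be technical. Each read marks the cleaved and polyadenylated end of a transcript (3′READS), so levels need no division by gene length.

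The table held 380332 to 480847 reads in deletion libraries and 233749 to 368419 in wild-type libraries. Wild-type replicate 2, the shallowest, was the least like its group: across genes, its mean Pearson correlation of log2 levels with its own group was 0.940, the lowest of the 6. Wild-type replicates 1 and 3 correlated less with their own group (0.9520 and 0.9497) than with the deletion libraries (0.9592 and 0.9570). Their own-group means include wild-type replicate 2. That library and the deletion libraries correlated better with their own group. By this measure the wild-type libraries did not stand apart as a group. Reads of JHD2 itself were not analysed here, so its loss was not checked. Values per library are given in the order of replicates 1, 2 and 3. The 24 genes took 1.96%, 1.87% and 1.92% of the reads in the 3 deletion libraries, against 2.03%, 2.21% and 2.21% in the 3 wild-type libraries.

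Chaperones bind unfolded stretches of protein and, with the help of ATP, keep them from aggregating until they fold. Hsp70 works with J proteins, which deliver substrates and trigger ATP hydrolysis, and with exchange factors, which reset it. Hsp90 takes over partly folded clients such as kinases, guided by co-chaperones. In yeast many of these genes are induced by heat through Hsf1, which binds repeated units of nGAAn (heat shock elements) in their promoters, and many are also transcribed at ordinary temperature.

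The heat shock elements are shown because they are a known feature of chaperone promoters. They were not a rule for picking genes, but the list was built on heat shock families. The share of genes with a match is therefore not independent of that choice. The 500 nt before each start codon were searched for 3 units in a row, either GAA, TTC and GAA or TTC, GAA and TTC, each 2 bases apart. These 2 patterns are each other's reverse complement, so both strands were covered, and they can overlap. A match was found in 6 of the 24 genes (25%), against 55 of 4011 genes in the table (1.37%), and in 7 of the 10 not analysed for level. For each of the 6 genes 1 match is shown, 5′ to 3′ on the gene's strand, with the repeated units in capitals, from the RefSeq assembly R64 (sacCer3).
SSA1, minus strand, chrI:141774-141803: tgtaaactTTCcaGAAcaTTCtagaaagaa
SIS1, minus strand, chrXIV:619888-619917: gtttatatGAAcgTTCcaGAAacttctgga
STI1, plus strand, chrXV:380829-380858: gtatgataGAAcaTTCcaGAAaaaaaattc
AHA1, plus strand, chrIV:892566-892595: tcacaatgGAAttTTCtaGAAgaaaaaaca
HSP60, minus strand, chrXII:665191-665220: acctcgtgGAAttTTCcaGAAaaccaaatg
KAR2, plus strand, chrX:381114-381143: ttttaataGAAccTTCtgGAAatttcaccc
A match is a description of these letters only. The pattern counts only exact units in a row and would miss gapped or imperfect ones. Genes without a match, HSP82, SSA3 and SSA4 among them, may thus still carry heat shock elements. The 6 genes with a match had log2 fold changes of -0.48 to 0.02 (median -0.09), and the 18 without had -0.60 to 0.53 (median -0.21), in deletion over wild type.

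At the RNA level most chaperone genes had fold changes slightly below 0 in the deletion, and none of the 24 passed the test. Of the 24, 20 had a log2 fold change below 0 and 4 above, where 1683 of 3366 tested genes (50%) lay below 0. Their median was -0.16, against -0.00026 for all tested genes. Called at an adjusted p under 0.05 (edgeR quasi-likelihood test, Benjamini-Hochberg over all tested genes) were 0 of 24, against 44 of 3366 tested genes (1.31%; 1.07% higher and 0.238% lower in the deletion). The DESeq2 Wald test also called 0. At an unadjusted p under 0.05, 2 of the 24 passed, HSP82 and HSP60, both lower in the deletion, where 9.83% of all tested genes passed (4.19% lower and 5.64% higher). All 24 passed the filter on low counts. The 95% interval of the log2 fold change lay between -1 and 1 in 21 genes, so it held no 2-fold change in either direction there. In the other 3, APJ1, SSA4 and SSE2, the most weakly expressed of the 24 in wild type, it reached farther. Each interval is for a single gene, unadjusted, and covers only the scatter among libraries, which may be technical.

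The groups did not overlap in 3 genes, APJ1 (lower in the deletion), SBA1 and SSE2 (both higher in the deletion), where 15.6% of all tested genes did not overlap (6.95% lower and 8.62% higher). Of the 24 genes, the highest of the 6 levels was that of wild-type replicate 2 in 9 and of wild-type replicate 1 in 8. The lowest was that of deletion replicate 2 in 9, deletion replicate 3 in 6 and deletion replicate 1 in 4. It was that of wild-type replicate 2 in 3 and wild-type replicate 3 in 2. The shares over all tested genes were not counted here, so no pattern of the chaperone genes is read from these counts. Leaving out 1 library at a time, the median log2 fold change of the 24 genes ran from -0.18 to -0.14, with 18 to 21 of them below 0.

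**Figure D1:**
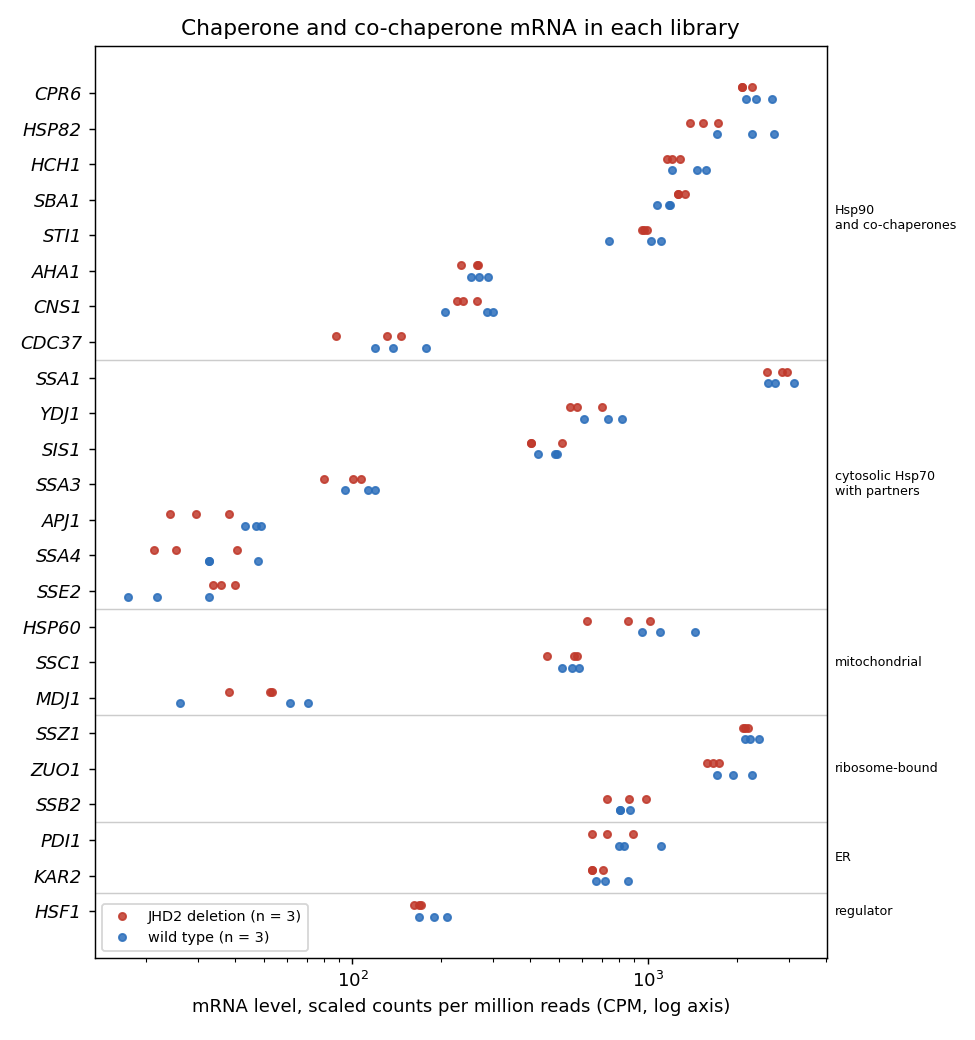
mRNA level of each of the 24 genes in every library, in scaled counts per 1e6 reads on a log axis, with 3 deletion libraries (red, upper row of each gene) and 3 wild-type libraries (blue, lower row). Levels span from SSE2 and SSA4 at the low end to SSA1 at the high end, and the red and blue points lie apart without overlap in APJ1, SBA1 and SSE2 only.

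SSA1, a main cytosolic Hsp70, stood highest in both strains, at 2778 ± 222 CPM in the deletion and 2786 ± 298 CPM in wild type (mean ± SD, n = 3 each; CPM are scaled counts per 1e6 reads of tested genes). CPR6, SSZ1, HSP82 and ZUO1 came next, at 1553 to 2139 CPM in the deletion and 1969 to 2369 CPM in wild type. HSP60 ranked 10th in the deletion and 7th in wild type. At the low end were SSE2, SSA4, APJ1 and MDJ1, between 23.9 and 52.7 CPM in wild type. In wild type, 18 of the 23 neighbouring pairs in this order had overlapping libraries and are not told apart in rank.

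Hsp90 and its co-chaperones comprised 8 of the genes, with 6 fold changes below 0, 2 above and 0 called. HSP82 encodes the heat-inducible Hsp90 of the cytosol (YPL240C, chromosome XVI, 96496 to 98625, minus strand). It stood at 1732, 1388 and 1538 CPM in the 3 deletion libraries, against 1707, 2678 and 2255 CPM in the 3 wild-type libraries. The groups overlapped through wild-type replicate 1, which lay just below deletion replicate 1. The log2 fold change was -0.51 (SE 0.14, 95% interval -0.79 to -0.22, adjusted p = 0.053 by edgeR), just above the threshold.

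This value was near the threshold and moved across it with the settings. HSP82 was called with DESeq2 size factors (adjusted p = 0.045, edgeR), with no low-count filter (0.047) and without wild-type replicate 1 (-0.67, adjusted p = 0.0028). Over 12 alternatives its adjusted p ran from 0.0028 to 0.41, and its log2 fold change from -0.67 to -0.36 over the fits that left out 1 library, the smallest change being that without wild-type replicate 2.

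**Figure D2:**
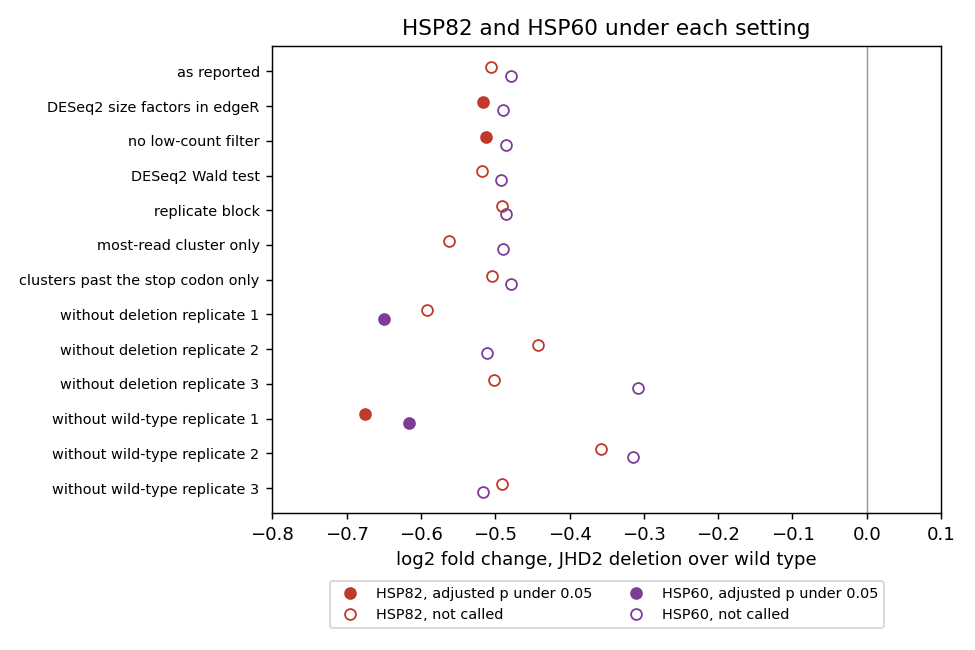
log2 fold change of HSP82 (red) and HSP60 (purple), deletion over wild type, under the reported settings and each alternative, with filled points where the adjusted p was under 0.05. Each value lies below 0, and filled points appear for HSP82 under 3 alternatives and for HSP60 under 2.

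No co-chaperone of Hsp90 passed the test (edgeR). STI1, which bridges Hsp70 and Hsp90, had a log2 fold change of 0.02 (95% interval -0.27 to 0.30). CPR6, a prolyl isomerase that binds Hsp90, had -0.15 (-0.40 to 0.10). AHA1, which stimulates the Hsp90 ATPase, had -0.09 (-0.41 to 0.24).

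HCH1, a smaller relative of AHA1, stood at 1157, 1204 and 1282 CPM in the 3 deletion libraries, against 1210, 1571 and 1463 CPM in the 3 wild-type libraries (log2 fold change -0.22, SE 0.13, adjusted p = 0.61, edgeR). Wild-type replicate 1 lay within the deletion range. SBA1, the yeast p23, which stabilises the closed form of Hsp90, had 1263, 1260 and 1336 CPM in the deletion, against 1175, 1189 and 1075 CPM in wild type. All 3 deletion libraries of SBA1 lay above all wild-type libraries, but the difference was small (0.17, SE 0.13, adjusted p = 0.71, edgeR), and it was -0.084 when only the most-read cluster was counted. CDC37, which delivers kinases to Hsp90, and CNS1, an essential partner of Hsp90 and Hsp70, had -0.23 and -0.13.

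**Figure D3:**
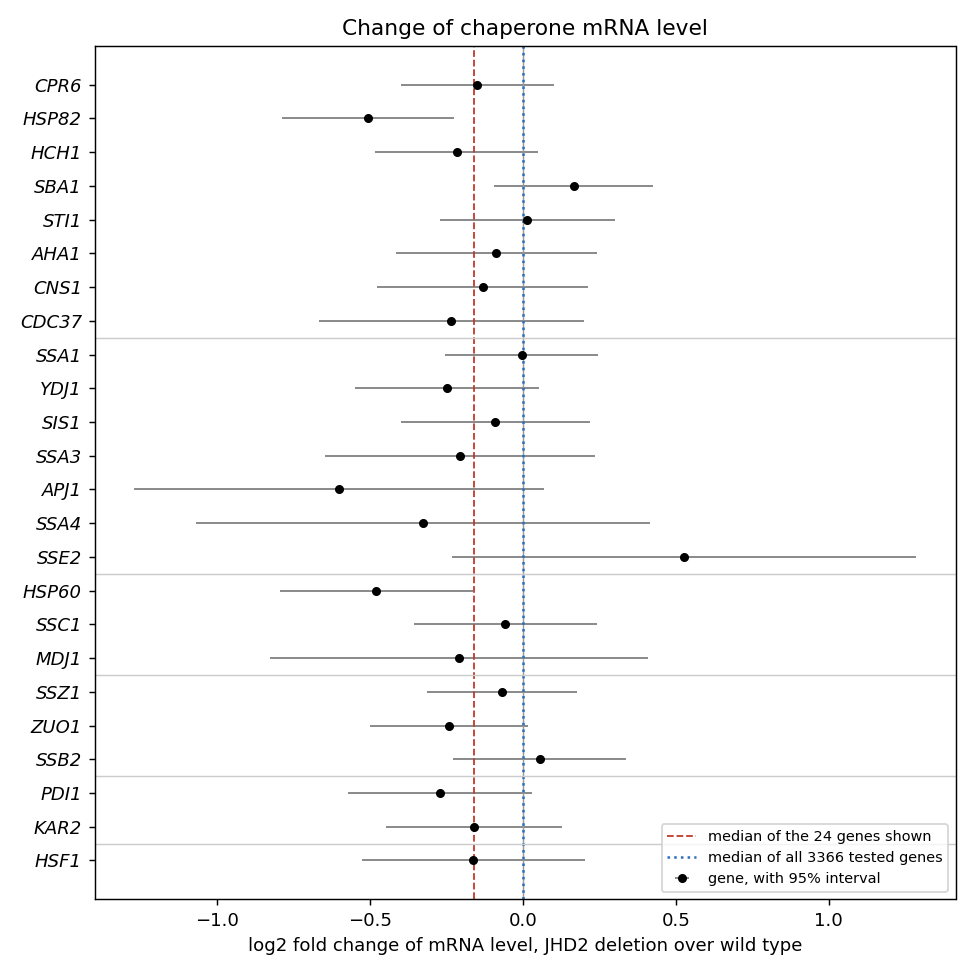
log2 fold change of mRNA level, deletion over wild type, for each of the 24 genes with its 95% interval. Most points lie left of 0, around the dashed median of -0.16, and HSP82 and HSP60 are the 2 whose interval does not hold 0.

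The cytosolic Hsp70 genes and their partners had 6 of 7 fold changes below 0 and 0 called. SSA1 (YAL005C, chromosome I, 139503 to 141431, minus strand) had 2961, 2530 and 2841 CPM in the 3 deletion libraries and 2551, 2686 and 3121 CPM in the 3 wild-type libraries. The groups overlapped, and the log2 fold change was -0.0034 (95% interval -0.25 to 0.25). Its stress-induced relatives were far lower. SSA3 (YBL075C, chromosome II, 84499 to 86448) had 101, 107 and 79.8 CPM in the deletion, against 119, 113 and 94.1 CPM in wild type (-0.20, SE 0.22, adjusted p = 0.82, edgeR). SSA4 (YER103W, chromosome V, 364589 to 366517) rested on 17, 8 and 12 reads in the deletion and 12, 11 and 9 reads in wild type (-0.33, SE 0.37, adjusted p = 0.83, edgeR).

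Within libraries the log2 ratio of SSA4 to SSA3 averaged -1.73 ± 0.50 in the deletion and -1.52 ± 0.31 in wild type (SD, n = 3 each; on log2(CPM + 1)). The difference of -0.20 had a two-sided exact permutation p of 0.60, where 0.10 is the smallest possible. Of 5 paralog pairs considered, this was the only one that could be formed from the 24 genes. With the most-read cluster of each gene only, the difference was -0.94 (exact permutation p = 0.20), and without deletion replicate 2 it was 0.069.

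J proteins select what Hsp70 works on. YDJ1, the main J protein of the cytosol, had 544, 697 and 574 CPM in the 3 deletion libraries, against 608, 733 and 818 CPM in the 3 wild-type libraries (-0.25, SE 0.15, adjusted p = 0.60, edgeR). Deletion replicate 2 lay above wild-type replicate 1. SIS1, an essential J protein, had -0.09 (95% interval -0.40 to 0.22). APJ1, a rarer J protein (YNL077W, chromosome XIV, 481391 to 482977), had the lowest fold change of the 24: 38.3, 24.0 and 29.4 CPM in the deletion, against 48.9, 43.4 and 47.1 CPM in wild type. Its groups did not overlap, but these levels rested on 9 to 18 reads per library, and the change of -0.60 had an SE of 0.33 (adjusted p = 0.56, edgeR).

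SSE2 is the stress-induced copy of the Hsp110 exchange factors, which reload Hsp70 with ATP. It had the highest fold change of the 24, with 15, 15 and 16 reads in the 3 deletion libraries and 12, 4 and 6 reads in the 3 wild-type libraries. Scaled, that was 35.9, 40.0 and 33.6 CPM in the deletion, against 32.6, 17.4 and 21.7 CPM in wild type. The groups did not overlap, and the log2 fold change was 0.53 (SE 0.38, adjusted p = 0.68, edgeR).

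The 3 mitochondrial genes all had fold changes below 0, and 0 were called. Those of SSC1 and MDJ1 lay above 0 when 1 library was left out. HSP60 encodes the chaperonin of the mitochondrial matrix (YLR259C, chromosome XII, 663284 to 665002, minus strand). It stood at 1018, 859 and 624 CPM in the 3 deletion libraries, against 958, 1441 and 1101 CPM in the 3 wild-type libraries. Deletion replicate 1 lay above wild-type replicate 1. The log2 fold change was -0.48 (SE 0.16, 95% interval -0.79 to -0.16, adjusted p = 0.16, edgeR).

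HSP60 was called when deletion replicate 1 was left out (-0.65, adjusted p = 0.047, edgeR) or wild-type replicate 1 (-0.62, adjusted p = 0.034). It stood at -0.31 without deletion replicate 3 (adjusted p = 0.58) and at -0.32 with wild-type replicate 2 left out (adjusted p = 0.40). Over 12 alternatives its adjusted p ran from 0.034 to 0.58. SSC1, the matrix Hsp70 and motor of protein import, had -0.06 (95% interval -0.35 to 0.24). MDJ1, its J protein, had -0.21 (-0.83 to 0.41), with wild-type libraries spread from 26.0 to 70.6 CPM.

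On the ribosome, SSB2 encodes an Hsp70 that meets nascent chains, and SSZ1 and ZUO1 form the complex that stimulates it. SSB2 had 982, 862 and 729 CPM in the 3 deletion libraries, against 803, 803 and 869 CPM in the 3 wild-type libraries (0.05, SE 0.14, adjusted p = 0.94, edgeR). ZUO1 had 1737, 1591 and 1658 CPM in the deletion, against 1715, 2248 and 1944 CPM in wild type (-0.24, SE 0.13, adjusted p = 0.54, edgeR). The groups of ZUO1 overlapped, since deletion replicate 1 lay above wild-type replicate 1. SSZ1, at 2139 ± 40.0 CPM in the deletion and 2239 ± 121 CPM in wild type (SD, n = 3 each), had -0.07 (95% interval -0.31 to 0.18).

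In the endoplasmic reticulum, KAR2, the Hsp70 of the lumen, had -0.16 (95% interval -0.45 to 0.13). PDI1, which forms and reshuffles disulfide bonds, had 726, 891 and 645 CPM in the 3 deletion libraries, against 830, 1107 and 796 CPM in the 3 wild-type libraries (-0.27, SE 0.15, adjusted p = 0.56, edgeR). The groups of PDI1 overlapped. HSF1 itself (YGL073W, chromosome VII, 368753 to 371254, plus strand) had 168, 171 and 162 CPM in the deletion, against 168, 208 and 188 CPM in wild type. Its wild-type replicate 1 lay within the deletion range, and the log2 fold change was -0.16 (SE 0.18, adjusted p = 0.83, edgeR).

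Most reads of the chaperone genes ended at 1 cluster shortly past the stop codon. The genes had 64 clusters in all, 12 genes with 2, 8 with 3 and 4 with 4. Past the stop codon lay 58 clusters, with 99.7% of the reads of the 24 genes, against 97.8% of reads over the whole table. The most-read cluster lay 27 nt (AHA1) to 262 nt (CDC37) past the stop codon, with a median of 102 nt, against 124 nt over all genes. It held 78.8% of a gene's reads at the median, against 71.4% over all genes. By mean share the same cluster led in both strains in all 24 genes, though not in every library of SBA1, SSA4 and SSE2.

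In yeast a UA-rich efficiency element and an A-rich positioning element precede the cleavage site. In the 100 nt before the most-read cluster, on the sense strand only, TATATA was found in 13 of the 24 genes (54.2%), against 45.1% of 4013 genes. AATAAA was found in 5 of them (20.8%), against 20.7%. The 2 motifs can overlap. The last 30 bases before clusters of the 4 genes with the smallest p for site usage are shown 5′ to 3′ on the gene's strand, ending at the deposited position, with AATAAA or TATATA in capitals.
HSP82 upstream, minus strand, chrXVI:96424-96453: tataacgtataggtattcgaatgAATAAAt
HSP82 main, minus strand, chrXVI:96375-96404: ctgcatggaaataactgggtaaaacattac
SBA1 upstream, plus strand, chrXI:221095-221124: atggaattAATAAAaatatttttattcgta
SBA1 main, plus strand, chrXI:221167-221196: taagcagatagaagctatattggatgcaaa
SSA4 main, plus strand, chrV:366625-366654: gactactatttgtacgttctcatcgtcata
SSA4 downstream, plus strand, chrV:366650-366679: tcataagccagagtttaattaagtgcctca
SSE2 upstream, minus strand, chrII:573783-573812: ttctattataaaaatgataattatttctac
SSE2 main, minus strand, chrII:573739-573768: gaatttaatgaaaattatgaaataacatac
In both HSP82 and SBA1 the upstream cluster has AATAAA in these 30 bases, ending 1 and 16 nt before the site, and the main cluster has none in its 30. In the 100 nt window the same copies also precede the main clusters, ending 50 nt (HSP82) and 88 nt (SBA1) before the site. The 2 sites of each gene thus do not differ in having AATAAA in that window. For TATATA the SBA1 sites do differ: in that window it ended 55 nt before the main cluster and was not found before the upstream cluster. Neither HSP82 cluster had TATATA in the window.

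Site usage changed in 0 of the 20 genes that could be tested, by edgeR and by limma-voom, against 5 of 2380 tested genes (0.21%). The remaining 4, SSA3, MDJ1, HSF1 and APJ1, had fewer than 2 clusters with 20 or more reads. At an unadjusted p under 0.05, 2 of 20 passed, HSP82 and SBA1, against 5.67% of all genes. Of single clusters 0 of 49 were called, against 1 of 5952 (0.0168%), and 1 had an unadjusted p under 0.05, against 2.15%. The mean 3′ end lay farther upstream in the deletion in 13 of the 20 genes and farther downstream in 7. Some of these shifts were tiny, down to -0.012 nt (PDI1) and 0.14 nt (SSB2). The share over all tested genes was not counted here, so no lean is read from these directions. The groups did not overlap in 3 (HSP82, SSA4 and SSE2), against 10.7% of all genes.

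HSP82 had the smallest p for site usage among the 20, ranking 8th of 2380 genes. Its upstream cluster, 72 nt past the stop codon, had 62, 45 and 58 reads in the 3 deletion libraries, against 32, 31 and 25 reads in the 3 wild-type libraries. The main cluster, at 121 nt, had 661, 475 and 674 reads in the deletion, against 597, 586 and 598 in wild type. The upstream share of HSP82 reads was thus 8.58% (95% Wilson interval 6.75 to 10.8), 8.65% (6.53 to 11.4) and 7.92% (6.18 to 10.1) in the deletion, against 5.09% (3.63 to 7.09), 5.02% (3.56 to 7.04) and 4.01% (2.73 to 5.86) in wild type. All 3 deletion libraries lay above all wild-type libraries, while the intervals, which cover counting error only, overlapped between some libraries.

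Scaled to the reads at retained clusters, the upstream cluster of HSP82 stood at 143 ± 17.1 CPM in the deletion and 114 ± 28.7 CPM in wild type (SD, n = 3 each). The main cluster stood at 1566 ± 172 CPM in the deletion and 2317 ± 502 CPM in wild type, so the difference in total lay at the main cluster. Measured from the upstream cluster, the mean 3′ end of HSP82 lay at 44.9 ± 0.196 nt in deletion libraries, against 46.7 ± 0.295 nt in wild-type libraries, a shift of -1.80 nt (negative is upstream). The gene did not pass (adjusted p = 0.25, edgeR). Leaving out 1 library gave shifts of -1.91 to -1.63 nt, and the adjusted p ran from 0.18 to 0.97 over 10 alternatives.

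**Figure D4:**
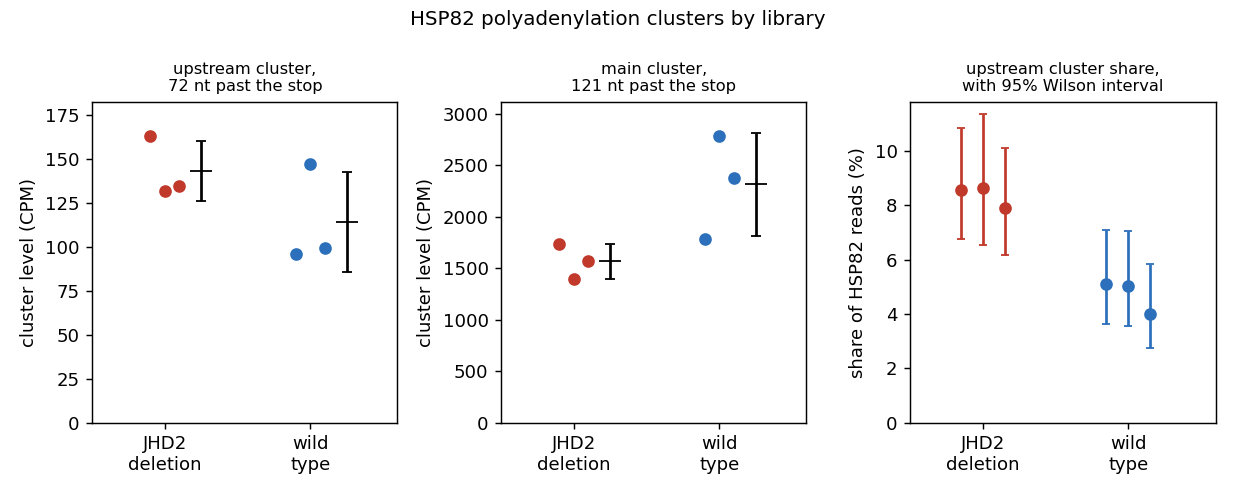
HSP82 by library, with deletion (red) left of wild type (blue): level of the upstream cluster and of the main cluster in CPM with mean ± SD in black (n = 3 each), and the share of HSP82 reads at the upstream cluster in % with 95% Wilson intervals. The upstream shares lie between 7.92% and 8.65% in the deletion and between 4.01% and 5.09% in wild type.

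In SBA1 (YKL117W, chromosome XI, 220324 to 220974, plus strand) the pair of clusters was more evenly used. At 150 nt past the stop codon lay a cluster with 231, 239 and 322 reads in the 3 deletion libraries, against 185, 73 and 137 reads in the 3 wild-type libraries. A second, at 222 nt, had 296, 233 and 314 reads in the deletion, against 248, 201 and 160 in wild type. The main cluster's share averaged 51.6% ± 3.93 in deletion libraries, against 61.5% ± 10.4 in wild-type libraries (SD, n = 3 each).

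The shift of the mean 3′ end of SBA1 was -7.10 nt in the deletion (adjusted p = 0.78, edgeR), and the groups overlapped. Wild-type replicate 2 stood apart here, with 26.6% of SBA1 reads at the upstream cluster (95% Wilson interval 21.8 to 32.2), against 42.7% (38.1 to 47.4) and 46.1% (40.5 to 51.8) in wild-type replicates 1 and 3. Without that library the shift was -2.84 nt.

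In SSE2 and SSA4 large shares rested on few reads. The upstream SSE2 cluster, at 132 nt, had 4, 6 and 8 reads in the 3 deletion libraries, against 3, 0 and 1 reads in the 3 wild-type libraries. For the 0 of 4 reads in wild-type replicate 2 the 95% Wilson interval of the share reached 49.0%. The main SSE2 cluster took 61.1% ± 11.7 of SSE2 reads in deletion libraries, against 86.1% ± 12.7 in wild-type libraries (SD, n = 3 each), and the gene did not pass (adjusted p = 0.91, edgeR). In SSA4 the downstream cluster held 6, 6 and 4 reads in the deletion, against 2, 3 and 2 reads in wild type, and the main cluster took 52.1% ± 23.5 of SSA4 reads in deletion libraries, against 77.9% ± 5.31 in wild-type libraries (SD, n = 3 each; adjusted p = 0.90, edgeR).

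**Figure D5:**
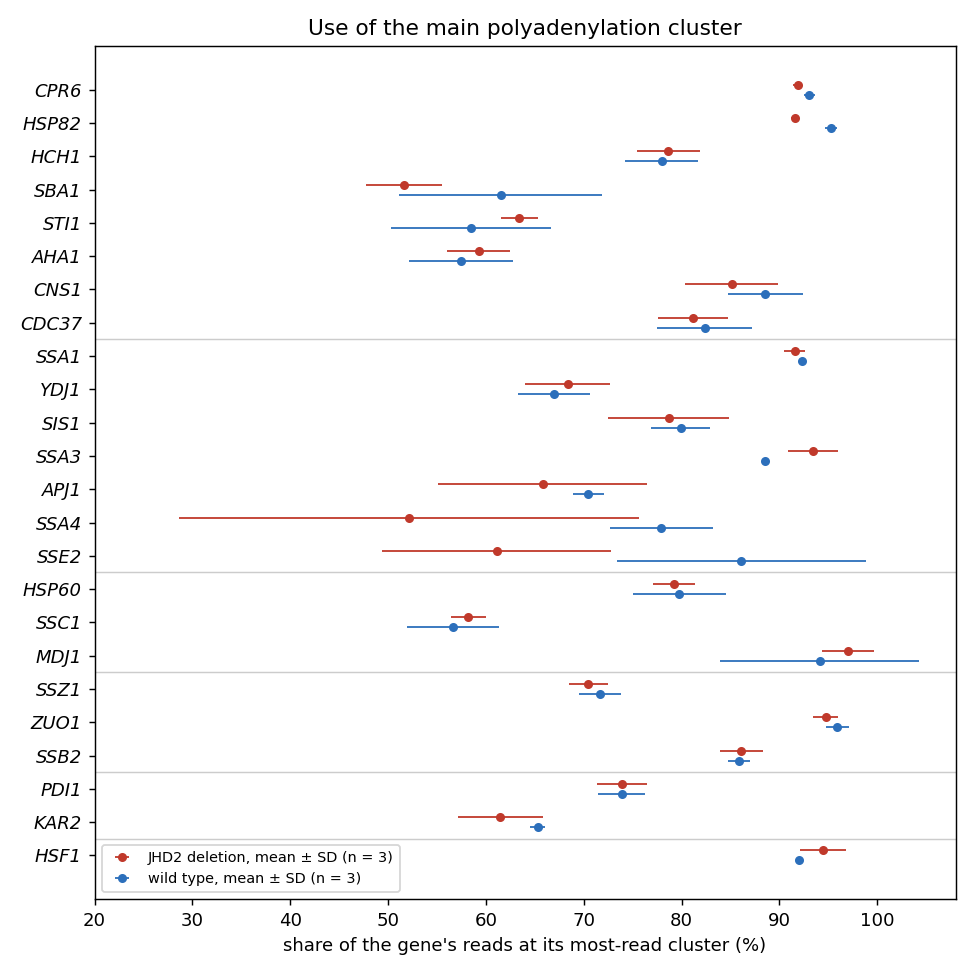
Share of each gene's reads at its most-read cluster, in %, as mean ± SD over 3 deletion libraries (red, upper) and 3 wild-type libraries (blue, lower). In 21 of the 24 genes the means differ by less than 5 percentage points, and the exceptions are SBA1, SSA4 and SSE2. SD bars are symmetrical and can pass 100%.

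Clusters inside coding regions numbered 6 of the 64. Of the clusters of the 24 genes, 90.6% lay past the stop codon, against 79.6% of all clusters in the table. SIS1 had one 18 nt into the gene, with 7, 24 and 31 reads in the 3 deletion libraries, against 15, 6 and 7 reads in the 3 wild-type libraries. The libraries of each group were spread and overlapped (10.9% ± 6.07 of SIS1 reads in the deletion, 6.57% ± 1.68 in wild type; SD, n = 3 each), and the gene did not pass (adjusted p = 0.93, edgeR). AHA1 had one 47 nt into the gene with 19 reads in all, and HSF1 had a pair with 13 and 12 reads. APJ1 and SSA3 had 1 each, with 7 and 3 reads. ZUO1, the remaining gene among the 6 with the smallest p, had a shift of -0.31 nt (adjusted p = 0.93, edgeR).

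Several of these genes have close copies. The 200 nt before the SSB2 cluster 70 nt past the stop codon matched 141 nt near SSB1 at 95.7% identity, so those reads are uncertain. Before the most-read clusters, the longest other matches were 90 nt at 94.4% for SSB2, 45 nt at 93.3% for SSA1 (near SSA2) and 78 nt at 88.5% for HSP82 (near HSC82). For the upstream cluster of HSP82 the match near HSC82 was 125 nt at 90.4%.

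A wider list of 60 other folding genes was read from the same test. It held the CCT chaperonin, prefoldin, the nascent chain complex, further J proteins, Hsp70 and Hsp90 partners, genes of the endoplasmic reticulum and stress proteins. Of these, 43 were tested, with 23 fold changes below 0, 20 above and 0 called (edgeR), against 1.31% of all tested genes. At an unadjusted p under 0.05, 4 were lower and 1 was higher, where 4.19% of all tested genes were lower and 5.64% higher. Their median log2 fold change was -0.02.

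The smallest p belonged to CCT4, a subunit of the cytosolic chaperonin that folds actin and tubulin, with 158, 125 and 122 CPM in the 3 deletion libraries, against 201, 247 and 203 CPM in the 3 wild-type libraries. All deletion libraries of CCT4 lay below all wild-type libraries (-0.67, SE 0.19, adjusted p = 0.057, edgeR). The next was CPR1, a cytosolic cyclophilin, at 7264 ± 90.6 CPM in the deletion and 5597 ± 1021 CPM in wild type (SD, n = 3 each). All deletion libraries of CPR1 lay above all wild-type libraries (0.37, SE 0.12, adjusted p = 0.16, edgeR). By class, where 50% of all tested genes lay below 0, fold changes below 0 numbered 4 of 5 in CCT, 4 of 5 in prefoldin, 1 of 3 in the nascent chain complex and 8 of 9 among further J proteins. They numbered 2 of 6 among further Hsp70 and exchange factors, 2 of 5 in the endoplasmic reticulum, 0 of 4 among further Hsp90 partners and 2 of 6 among stress proteins. For site usage 0 of 30 tested genes of this list were called (edgeR), against 0.21% of all genes, and 1 had an unadjusted p under 0.05, against 5.67%.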

How the data were processed

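Reads per pA cluster were counted by the authors in 3 deletion and 3 wild-type libraries, and the deposited values are raw counts. Per the series description, reads were aligned to sacCer3 with Bowtie2 (version not given in the sources used here), low-quality alignments and reads without extra 5′ T bases were removed, ends were clustered within 24 bp, and clusters under 3 reads or under 5% of a gene's reads were dropped. Some clusters used here hold less than 5% of their gene's reads over the 6 libraries, such as 1.39% in SSA3 and 2.91% in CDC37. How that limit was applied is not known. Whether positions count from 0 or 1 is not stated, so distances carry an uncertainty of 1 nt. Genes were looked up in RefSeq R64, the same assembly. The genes and lists were chosen with earlier results of these data known.

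Reads were summed over a gene's clusters and tested with edgeR 4.0.16 in R 4.3.3 (TMM, default low-count filter, group only, Benjamini-Hochberg, threshold 0.05). Site usage was tested with diffSpliceDGE on clusters with 20 or more reads in genes with 2 or more such clusters. Alternatives used DESeq2 1.42.0 and limma 3.58.1. Genes described library by library are the 8 with the smallest p for level, the 6 for usage, HSF1 and paralogs; the coding clusters and the levels of SSZ1 and MDJ1 were added after their values were seen. The tests were checked on simulated data, where the changes put in were larger than any seen in the chaperone genes. That check does not tell how often changes as small as these would be called. Replicates of a group were distinct, with a chi-square per degree of freedom of 1.36 or more.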

Additional observations from a re-analysis of the deposited data

How the results depend on the processing

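For the 24 level changes and the 6 named 3′ end shifts, directions held in all alternatives except these. Leaving out 1 library, SSA1 ran from -0.075 to 0.085, above 0 without deletion replicate 2 (0.048) or wild-type replicate 3. SSB2 ran from -0.055 (without deletion replicate 1) to 0.16, MDJ1 from -0.48 to 0.076 (without wild-type replicate 1) and SSC1 from -0.12 to 0.028 (without deletion replicate 2). STI1 ran from -0.15 to 0.12, below 0 without wild-type replicate 2 or deletion replicate 3 (-0.0028). SBA1 was at -0.084 with the most-read cluster only. The difference in the log2 ratio of SSA4 to SSA3 was -0.94 with the most-read cluster only, and ran from -0.42 to 0.069 (without deletion replicate 2) when 1 library was left out. Sizes moved too: without 1 library, PDI1 ran from -0.41 to -0.13, SSA4 from -0.63 to -0.17, SSA3 from -0.30 to -0.082, YDJ1 from -0.37 to -0.14 and SSE2 from 0.37 to 0.86. The SIS1 shift, -48.9 nt in the reported fit, ran from -86.1 to -21.6 nt without 1 library. With clusters past the stop codon only it was -0.76 nt, so it rested on the SIS1 cluster inside the coding region.

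Genes called for mRNA level numbered 24 by the DESeq2 Wald test and 27 with the most-read cluster only, against 44, and 30 to 51 without 1 library. Of the chaperone genes 1 was called with DESeq2 size factors and 1 with no low-count filter (HSP82 in both), and 0 to 2 without 1 library. With the most-read cluster only, SSA4 and SSE2 did not pass the low-count filter and were not tested.

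Genes called for site usage numbered 1 with a cluster minimum of 50, 2 with 10, 1 with clusters past the stop codon only and 2 by limma-voom, against 5, and 0 to 4 without 1 library. Single clusters called numbered 0 with a minimum of 10, 0 with clusters past the stop codon only and 4 by limma-voom, against 1, and 0 to 5 without 1 library. None of these settings called a chaperone gene for site usage. The cause of these differences was not tested.

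Replicate numbers did not pair the libraries: deviations of same-numbered libraries correlated at -0.091, -0.029 and -0.015. With the replicate block, 2 genes and 0 clusters were called for site usage, 0 chaperone genes were called for either measure, and HSP82 stood at -0.49 (adjusted p = 0.17, edgeR).

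Depth limits the weakest genes: SSE2, SSA4 and APJ1 had 4 to 18 reads per library, and shares of their reads have wide counting intervals.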
